A study of Mus musculus with 6 samples.

Results

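The mitochondrial respiratory chain genes that the nucleus encodes were followed through 6 RNA-seq libraries of mouse cranial base cartilage. Members were chosen by symbol alone, as the subunit families of the 5 complexes, and 85 of the 24346 symbols in the deposited values qualified. Complex I contributed 37 genes, complex II 4, complex III 9, complex IV 18 and the ATP synthase 17. The tissue was the spheno-occipital synchondrosis, a growth cartilage between bones of the skull base, from which layers of chondrocytes were cut out under a laser microscope. There were 3 libraries coded FP and 3 coded RR, and each code has libraries numbered 11, 14 and 16. The series text speaks of flat and round chondrocytes, but the labels do not spell out the codes, which are therefore kept.

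Both groups share the genotype Gli1CreERT2 with a Tomato flox reporter and tamoxifen on postnatal day 3. In this genotype Cre is driven by Gli1, a hedgehog target gene, and the cells were not sorted by the reporter as far as the labels say. The sources used here give no age at collection. Since no label ties the libraries to separate animals, a p-value here reflects only how much these samples vary, and that variation may be technical. The cartilage label was checked against 7 chondrocyte markers: all were detected, and Col2a1, the main cartilage collagen, lay between 38697 and 81873 FPKM. FPKM counts sequenced fragments by transcript length and by the size of the library.

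The respiratory chain passes electrons from NADH (complex I) and succinate (complex II) through complex III to oxygen at complex IV, and the proton gradient that results drives the ATP synthase. Most subunits are encoded in the nucleus, and several complex IV subunits exist in a widespread form and in a form typical of muscle, brown fat, lung or testis. Cartilage has few or no blood vessels, and its chondrocytes are known to draw much of their ATP from glycolysis.

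Promoter sequences are shown first, because many of these genes are known targets of the factors NRF1, GABP and YY1. RefSeq windows (GRCm38.p6) of 300 bases, from 250 before to 50 after a start site, were at hand for 66 of the 85 members, in 71 windows. They were searched on both strands for GCGCANGCG (NRF1), CCGGAAG (the ETS site bound by GABP), AAGATGGCG (YY1) and AGGTCA (the core bound by nuclear receptors such as ERR alpha). No matches of different motifs overlapped in a member window. The NRF1 letters were in 29.6% of member windows, against 6.25% of all 32851 windows and 11.7% of the 14030 windows of genes tested here. For the ETS letters the shares were 22.5%, 8.86% and 15.1%. The YY1 letters were in 9.86% of member windows, 1.40% of all and 2.59% of those of tested genes, and AGGTCA in 22.5%, 16.3% and 12.97%. A match describes letters and is no evidence of binding.

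The 8 sequences below are the 150 bases before the RefSeq start site, 5′ to 3′ on the gene's strand, with matches to any of the 4 motifs on either strand in capitals. The first 4 are, for each complex that had one, the member with the highest mean FPKM among those with an NRF1 match in this stretch (complex III had none). Next come Ndufs6 and Ndufa8, the members of complex I with the smallest p, and last Cox8b and Cox7a1, the muscle and brown fat isoforms. Positions are chr16:37654369-37654518 for Ndufb4, chr13:74350241-74350390 for Sdha, chr5:115348959-115349108 for Cox6a1, chr11:115419920-115420069 for Atp5h, chr13:73328483-73328632 for Ndufs6, chr2:36049339-36049488 for Ndufa8 and chr7:140900447-140900596 for Cox8b, all on the minus strand. Cox7a1 lies at chr7:30184021-30184170 on the plus strand. Some GENCODE transcripts of these genes begin upstream of the RefSeq start.
Ndufb4: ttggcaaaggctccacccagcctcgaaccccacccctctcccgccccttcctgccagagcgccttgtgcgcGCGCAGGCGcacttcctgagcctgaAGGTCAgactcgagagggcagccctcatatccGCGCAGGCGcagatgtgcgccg
Sdha: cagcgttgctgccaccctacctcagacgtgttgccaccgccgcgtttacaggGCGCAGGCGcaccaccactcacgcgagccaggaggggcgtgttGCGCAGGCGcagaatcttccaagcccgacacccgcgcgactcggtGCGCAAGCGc
Cox6a1: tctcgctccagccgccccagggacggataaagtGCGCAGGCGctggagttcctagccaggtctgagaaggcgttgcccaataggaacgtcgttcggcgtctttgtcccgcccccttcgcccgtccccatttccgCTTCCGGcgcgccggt
Atp5h: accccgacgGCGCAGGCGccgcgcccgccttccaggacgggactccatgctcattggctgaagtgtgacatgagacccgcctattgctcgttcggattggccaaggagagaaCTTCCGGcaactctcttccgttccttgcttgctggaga
Ndufs6: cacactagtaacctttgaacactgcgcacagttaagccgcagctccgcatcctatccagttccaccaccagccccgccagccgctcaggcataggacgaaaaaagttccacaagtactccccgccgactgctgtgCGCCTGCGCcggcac
Ndufa8: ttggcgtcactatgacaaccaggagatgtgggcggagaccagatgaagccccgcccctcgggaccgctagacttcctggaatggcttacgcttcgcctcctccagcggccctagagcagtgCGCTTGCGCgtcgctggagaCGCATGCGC
Cox8b: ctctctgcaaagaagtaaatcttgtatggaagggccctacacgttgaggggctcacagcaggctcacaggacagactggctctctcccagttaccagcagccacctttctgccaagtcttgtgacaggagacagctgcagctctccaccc
Cox7a1: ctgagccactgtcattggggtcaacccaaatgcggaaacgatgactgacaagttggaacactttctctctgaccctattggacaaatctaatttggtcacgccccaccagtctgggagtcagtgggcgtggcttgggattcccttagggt
Sdha carried 3 NRF1 matches, the nearest of them 2 bases before the start site. Ndufb4 carried a pair of NRF1 matches with AGGTCA between them. Cox6a1 and Atp5h each held an NRF1 match and, nearer the start, the ETS letters on the opposite strand. Ndufs6 had 1 NRF1 match and Ndufa8 had 2, all on the opposite strand and within 29 bases of the start. Cox8b and Cox7a1 had no match to any of the 4 motifs in this stretch or in the full window.

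Depth and agreement of the libraries bear on all values below. Per transcript of 2000 bp, 1 fragment was worth 0.127 FPKM in the deepest library (FP 11) and 0.296 FPKM in the shallowest (RR 14), a 2.32-fold range in depth provided that the deposited values carry no scaling between libraries. Member transcripts are short, with a median of 732 bp against 2642 bp for tested protein-coding genes, so the median member had an estimated 112 fragments in FP 11 but 18.7 in RR 14. Across all tested genes, the 3 FP libraries had pairwise Pearson's r of 0.856 to 0.873, and the 3 RR libraries of 0.787 to 0.845. Genes of hypertrophic chondrocytes separated the groups: all 4 on the list passed the test, among them Col10a1 at 298 to 381 FPKM across FP and 2.99 to 13.98 across RR. RR 16 stood apart in fat genes: 5 adipocyte markers summed to 528 FPKM there and to at most 42.6 FPKM in any other library.

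No respiratory chain gene passed the test between FP and RR. With limma on log2(FPKM + 1) and Benjamini-Hochberg adjustment over the 14789 genes whose mean reached 1 FPKM, 0 of the 84 tested members had an adjusted p under 0.05, where 0.967% of all tested genes did (143 genes, 0.554% higher and 0.412% lower in FP). At an unadjusted limma p under 0.05 there were 4 members, Cox4i2, Ndufs6, Ndufa8 and Atp5g3, which is 4.76% of members against 10.3% of tested genes. In 5 members, these 4 and Atp5g2, every FP library lay above every RR library, which is 5.95% against 8.74% of tested genes. No member had every FP library below every RR library, against 7.28%. Of the other ways of fitting that were tried, 5 passed Cox4i2 and 1 more passed Ndufs6 (below), and no fit passed more than 1 member.

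More estimates lay above 0 than below in the reported fit. The fitted log2 change was above 0 in 55 of 84 members (65.5%, against 51.6% of tested genes) and below it in 29 (34.5%, against 48.4%), and its median was 0.18 against 0.02 for all tested genes. The median was 0.04 after rescaling without the 200 highest genes, which moved the median of all genes to -0.10, and turned to -0.04 under quantile normalization, and it also turned below 0 without FP 11 (-0.12), without RR 14 (-0.22) and without both libraries numbered 11 (-0.01). Above 0 were 45 of 84 estimates without the 200 highest genes and 39 under quantile normalization. The standard error of a single gene had a median of 0.47 over the members and 0.36 over all tested genes. The 95% interval lay within 1 log2 unit of 0 in 18 members (21.4%), against 32% of tested genes, and for the rest it reached further on at least 1 side.

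**Figure D1:**
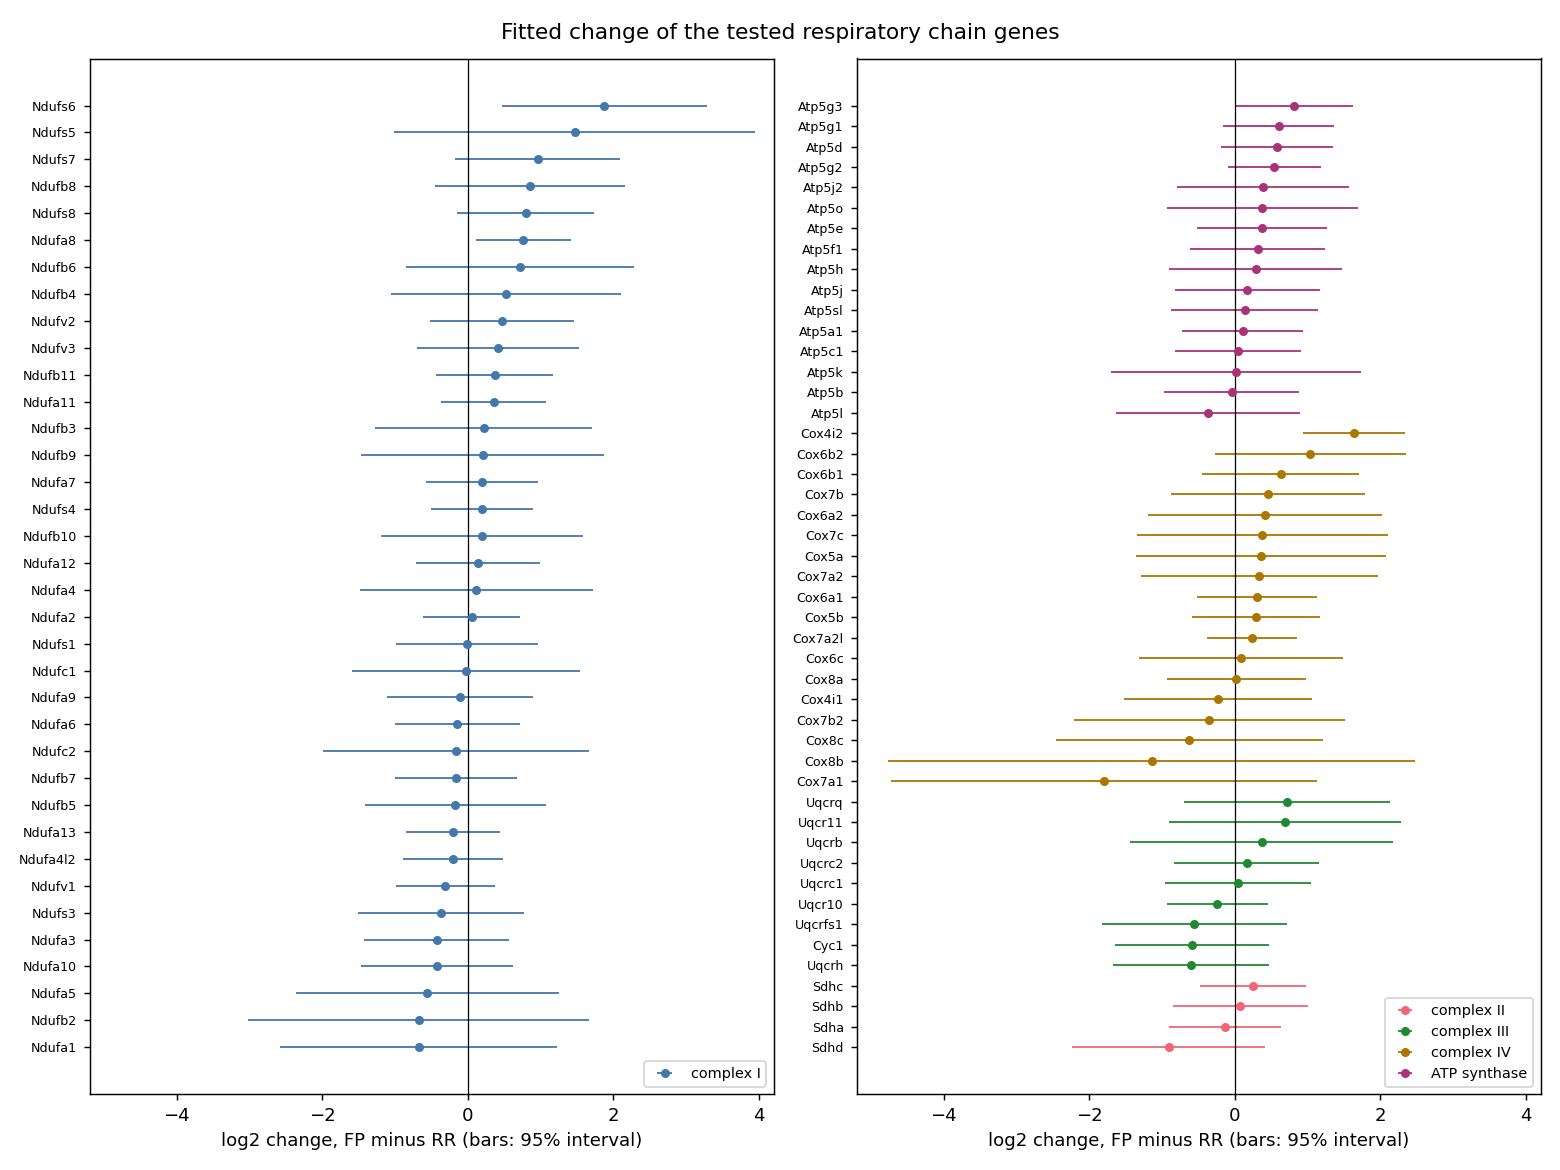
Fitted log2 change, FP minus RR on the log2(FPKM + 1) scale, for tested genes, coloured by complex, with points for the estimate and bars for its 95% interval. Most bars cross 0, those of Cox4i2, Ndufs6, Ndufa8 and Atp5g3 lie above it, and none passed after adjustment.

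Differences between FP and RR libraries of the same number went both ways. The median member was higher in FP by 0.43 log2 units at number 11 and by 0.29 at number 14, and lower by 0.43 at number 16 (-0.43), against 0.07, 0.02 and 0 for all tested genes. FP was above RR at all 3 numbers in 10 members (11.9%, against 21% of tested genes) and below it at all 3 in 2 members, Uqcrfs1 and Uqcrh (2.38%, against 17.1%).

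Within a group, the members moved together from library to library. Summed over all 85 genes, FP 11, FP 14 and FP 16 reached 3728, 2025 and 2428 FPKM, and RR 11, RR 14 and RR 16 reached 2687, 1454 and 3438 FPKM. These sums average 2727 ± 890 FPKM for FP and 2526 ± 1001 FPKM for RR (SD, n = 3 each), and the groups overlapped. FP 11 and RR 16 were high, and the libraries numbered 14 were low in both groups.

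**Figure D2:**
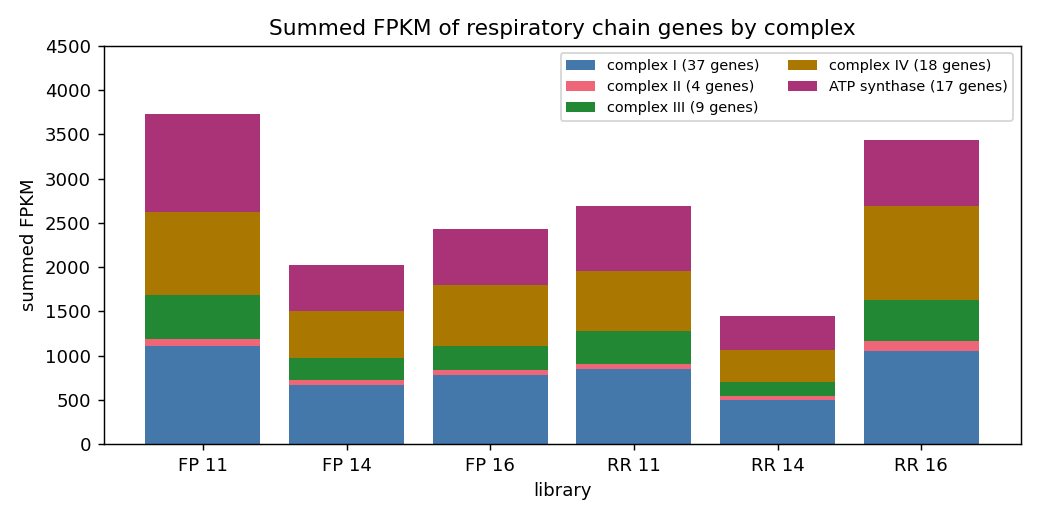
Summed FPKM of the respiratory chain genes in each library, stacked by complex. The bars of FP 11 (3728 FPKM) and RR 16 (3438 FPKM) are the highest and that of RR 14 (1454 FPKM) is the lowest, and RR 14 is the lowest library for each of the 5 complexes.

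The same order held gene by gene. Of the 84 tested members, 66 had their highest FP value in FP 11 (78.6%, against 39% of all tested genes) and 58 their highest RR value in RR 16 (69%, against 36.5%). The lowest FP value was in FP 14 for 56 members (66.7%, against 34.8%), and the lowest RR value in RR 14 for 62 (73.8%, against 34.8%). RR 16 exceeded RR 14 in 80 of 84 members, by a median of 1.10 log2 units, where the median of all tested genes was 0.09. FP 11 exceeded FP 14 in 75 of 84, by a median of 0.88, against 0.03. In these bulk samples, fewer cells that express the genes and less RNA per cell cannot be told apart.

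Depth moved with this order within each group, but FP 16 was deeper than RR 11 and had a lower member sum (2428 against 2687 FPKM). Relative to RR 14, the depth was 2.32, 1.17 and 1.58 in FP libraries 11, 14 and 16, 1.52 in RR 11 and 1.69 in RR 16, so the libraries with the highest member sums were also the deepest. Between 7 (FP 11 and RR 16) and 27 (RR 14) members were estimated at under 10 fragments. Across 83 members, shorter transcripts had weakly larger differences between FP 11 and FP 14 (Spearman's rho -0.15), RR 11 and RR 14 (-0.20) and RR 16 and RR 14 (-0.14), as a description across genes that share libraries. Over 13243 genes, rho was -0.07, -0.05 and -0.04. RR 16, high in member sum, was also the library with high adipocyte markers (summed to 528 FPKM, against at most 42.6 in any other). The part of depth, transcript length and fat cells in the order of the libraries was not tested.

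**Figure D3:**
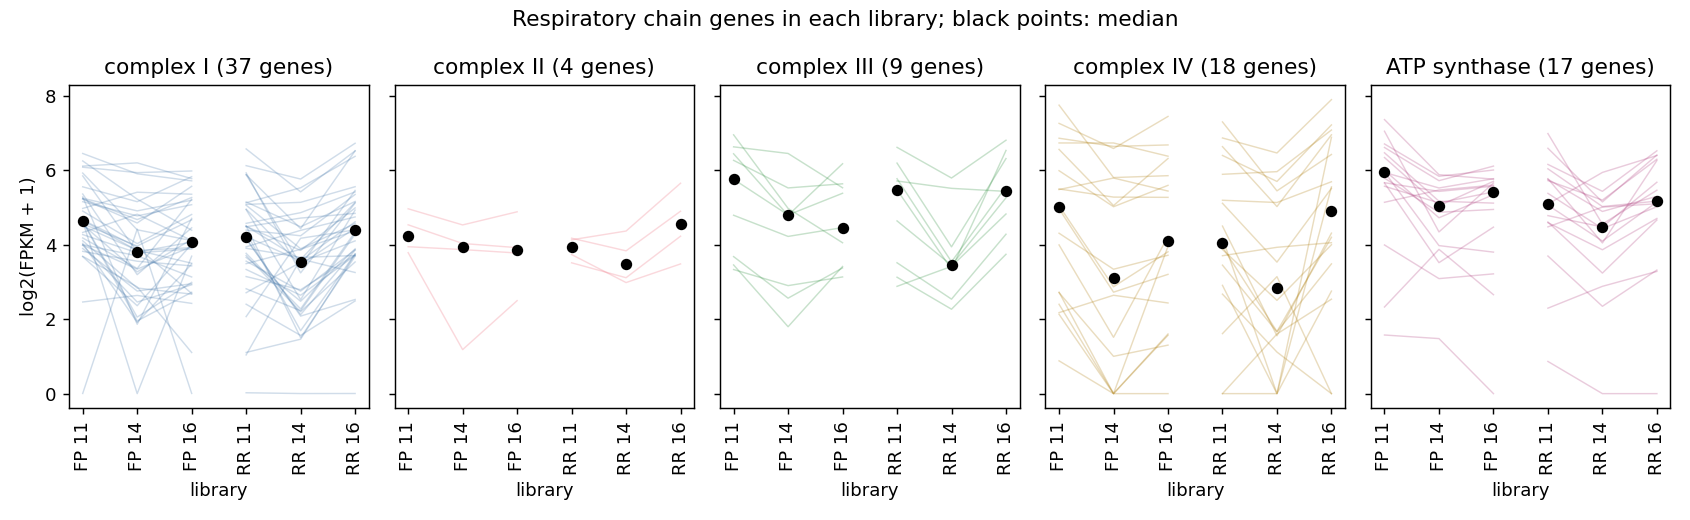
Level of each respiratory chain gene, as log2(FPKM + 1), in the 6 libraries, in 1 panel per complex, with a line per gene within each group and black points for the median. In each of the 5 panels the median is highest at FP 11 within FP and lowest at RR 14 within RR, and the ranges of FP and RR overlap.

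The genes outside the family whose profile was most like the members' mean profile were Hspa9, the mitochondrial HSP70 chaperone, and Tdp2, a DNA repair enzyme, both with Pearson's r of 0.990 over the 6 libraries, as a description. Hspa9 was at 41.9, 21.4 and 26.5 FPKM across FP and 29.8, 15.6 and 36.8 across RR, in the order 11, 14 and 16 used from here on. Tdp2 was at 5.46, 2.58 and 3.02 FPKM across FP and 3.16, 1.503 and 5.497 across RR. Since they were picked for this likeness, FP 11 and RR 16 are high and number 14 is low in both. Tdp2 was slightly higher in RR 16 than in FP 11, unlike the member sums. Of the 84 members, 67 had r above 0.5 with their own mean profile and 4 were below 0. Each member is part of that profile, which favours a positive r, and no share over other genes is given. These counts describe 6 points each that share depth.

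Complex I takes electrons from NADH. Its median fitted log2 change was 0.14, with 21 of 37 estimates above 0. The median was 0 to 2 decimals after rescaling without the 200 highest genes (18 above 0) and -0.04 under quantile normalization (17 above 0). Summed over the complex, the level was 1111, 672 and 782 FPKM across FP and 853, 500 and 1056 FPKM across RR. Of the catalytic core, Ndufv1, which binds NADH, was at 13.1, 10.7 and 9.77 FPKM across FP and 10.2, 13.7 and 19.7 across RR. Ndufs1, the largest iron-sulfur subunit, was at 16.2, 6.14 and 5.37 FPKM across FP and 7.83, 5.91 and 12.2 across RR. Both overlapped between the groups, with fitted changes of -0.31 ± 0.30 and -0.02 ± 0.43 (SE).

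Ndufs7, an iron-sulfur subunit of the core near the site where ubiquinone is reduced, had a higher mean in FP. It was at 19.1, 27.2 and 16.3 FPKM across FP against 12.6, 3.84 and 19.2 across RR, a fitted change of 0.96 ± 0.50 (limma adjusted p = 0.598). RR 16 reached into the FP range. Ndufs8, another iron-sulfur subunit of the core, was at 24.1, 13.3 and 14.1 FPKM across FP against 11.6, 4.58 and 13.8 across RR, with the same overlap.

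The accessory subunits Ndufs6 and Ndufa8 had the smallest p of the complex. Ndufs6, a zinc-binding subunit, was at 18.3, 12.7 and 13.8 FPKM across FP and at 1.15, 1.75 and 12.4 across RR. FP libraries lay close together, RR 11 and RR 14 were far below them, and RR 16 nearly reached them. The fitted log2 change was 1.87 ± 0.62 (limma adjusted p = 0.305), and without RR 16 it was 2.69 with an adjusted p of 0.0206. In the other 17 fits its adjusted p stayed above the threshold, up to 0.858. Its RR 11 and RR 14 values are worth an estimated 1.68 fragments each, and the gene is uncertain for a further reason: it has 1 near-identical pseudogene copy, and its exons overlap those of Mrpl36 on the opposite strand.

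Ndufa8 was at 36.9, 29.0 and 35.5 FPKM across FP and 14.4, 19.9 and 25.8 across RR, so the groups did not overlap. The ratio of the group means was 1.69, and the fitted change was 0.76 ± 0.29 (limma adjusted p = 0.400). It has no near-identical copy and no exon overlap on the opposite strand. Over 18 other fits its change ranged from 0.49 to 0.95 with adjusted p of 0.193 to 0.822.

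Ndufa6, with the highest mean of the complex, was at 86.2, 58.8 and 51.4 FPKM across FP and 93.9, 41.7 and 90.5 across RR. Ndufa1, a small membrane subunit, had the lowest fitted change (-0.68 ± 0.84), from 11.9, 6.29 and 1.15 FPKM across FP against 21.7, 1.83 and 11.9 across RR. Neither separated the groups. Ndufs5 was listed at 20.3 FPKM in FP 14 and at 0.00166 to 0.0163 FPKM in the other 5 libraries, values far below what 1 fragment is worth. Such values cannot be whole fragments assigned to the gene alone, and Ndufs5 carries no comparison.

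Ndufb2 was listed at 0 in FP 14, beside 23.7 and 11.9 FPKM in FP 11 and FP 16 and 5.54, 10.5 and 16.2 FPKM in RR. A listed 0 can be a failed estimate, and the exons of Ndufb2 overlap those of Braf and Gm16272 on the opposite strand.

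Ndufa4l2 is a paralog of Ndufa4 known to be induced by the hypoxia factor HIF-1, and Ndufa4 itself is now assigned to complex IV. Ndufa4l2 was at 66.5, 60.1 and 62.0 FPKM across FP and 68.5, 53.2 and 104 across RR. Ndufa4 was at 23.8, 3.15 and 6.92 FPKM across FP and 6.04, 3.68 and 18.4 across RR. Per length, the paralog was thus above Ndufa4 in all 6 libraries. Ndufa4 was at an estimated 2.88 fragments in FP 14, 8.53 in FP 16, 7.14 in RR 11 and 2.86 in RR 14, so the size of the ratio is uncertain there. The log2 ratio of the pair differed by -0.32 between FP and RR (exact permutation p = 0.8, two-sided). Ndufa4l2 overlaps Shmt2 on the opposite strand, and the sources used here do not say whether the counting used strand.

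Complex II oxidises succinate and is also an enzyme of the TCA cycle. All 4 genes overlapped between groups, and their fitted changes ran from -0.91 to 0.25. Sdha, the flavin subunit, whose promoter is shown above, was at 22.1, 15.3 and 14.1 FPKM across FP and 17.0, 13.3 and 28.8 across RR. Sdhb, the iron-sulfur subunit, was at 30.2, 22.1 and 28.5 FPKM across FP and 16.5, 19.6 and 49.1 across RR. RR 16 was the highest of the 6 libraries for both genes. Of the membrane anchors, Sdhc was at 14.4, 13.6 and 12.7 FPKM across FP and 10.4, 7.64 and 17.7 across RR, a change of 0.25 ± 0.32. Sdhd was at 12.8, 1.27 and 4.64 FPKM across FP and 12.3, 6.90 and 10.2 across RR, a change of -0.91 ± 0.58 (limma adjusted p = 0.692).

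Complex III hands electrons to cytochrome c. Its median change was 0.04, and -0.10 after rescaling without the 200 highest genes, where the median of all genes was also -0.10. Under quantile normalization it was -0.13, against 0.0015 for all genes. Uqcrc1, a core protein, was at 26.6, 17.6 and 20.97 FPKM across FP and 23.9, 9.91 and 37.2 across RR, and all FP values lay inside the RR range. The electron carriers Uqcrfs1 (the Rieske iron-sulfur protein) and Cyc1 (cytochrome c1) had negative estimates. Uqcrfs1 was at 9.96, 2.47 and 9.65 FPKM across FP and 10.4, 4.80 and 18.4 across RR, a change of -0.56 ± 0.56. Cyc1 was at 9.06, 6.46 and 7.77 FPKM across FP and 6.36, 9.68 and 27.3 across RR, a change of -0.59 ± 0.46 in which RR 16 stands far above the rest.

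Uqcrh, the hinge protein that contacts cytochrome c1, had the lowest estimate of the complex and the highest mean. It was at 85.7, 26.6 and 71.0 FPKM across FP and 96.7, 54.2 and 111 across RR, lower in FP at each number but overlapping between groups. The fitted change was -0.60 ± 0.47 (limma adjusted p = 0.758). Uqcrq, a small subunit, had the highest estimate, 0.72 ± 0.62, from 97.7, 86.2 and 45.1 FPKM across FP and 71.9, 14.4 and 78.3 across RR. Without RR 14, the lowest of its values, the change was -0.05.

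Complex IV reduces oxygen. Its median change was 0.30 with 13 of 18 estimates above 0. Without the 200 highest genes it was 0.15 with 11 above 0, but under quantile normalization -0.04 with 8. The genes present in most tissues overlapped between the groups. Cox4i1, the widespread form of subunit 4, was at 93.1, 32.1 and 78.5 FPKM across FP and 98.0, 31.5 and 122 across RR. Cox5a was at 30.1, 5.60 and 8.20 FPKM across FP and 14.3, 2.18 and 17.3 across RR. Cox8a had the highest mean of all members, at 152, 94.7 and 173 FPKM across FP and 115, 87.0 and 237 across RR. Number 14 was lowest in each of these genes in both groups, as in the sums. Cox7a2l, which helps complexes III and IV join into supercomplexes, was at 43.6, 54.2 and 42.4 FPKM across FP and 35.5, 34.0 and 50.5 across RR, and went against that order in FP.

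Cox4i2 had the smallest p of the 84 tested genes. It encodes the form of subunit 4 typical of lung and known to be induced by low oxygen, and lies on mm10 at chr2:152754173-152765037 (plus strand), with no near-identical copy and no exon overlap on the opposite strand. Its level was 62.3, 31.4 and 47.2 FPKM across FP and 12.01, 14.2 and 15.6 across RR, an estimated 178, 45.4 and 92.2 fragments in FP and 22.6, 17.5 and 32.5 in RR. All FP libraries were at least at 31.4 FPKM and no RR library was above 15.6. Means were 47.0 ± 15.5 FPKM for FP and 13.9 ± 1.80 for RR (SD, n = 3), a 3.37-fold ratio.

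The fitted log2 change of Cox4i2 was 1.64 ± 0.31 (95% interval 0.94 to 2.33) with a limma adjusted p of 0.0534, just outside the threshold. It stayed between 1.31 and 1.91 over 18 other fits, with adjusted p of 0.0316 to 0.430. It passed in 5 of them: a pseudocount of 0.1 (0.0496), a filter at a mean of 5 FPKM (0.0357), rescaling by the median ratio (0.0494), zeros as missing (0.0316) and library number as a replicate block (0.0415). It did not pass when any library was left out. The higher level in FP was seen at each number, by 2.28, 1.09 and 1.54 log2 units.

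The ratio of Cox4i2 to Cox4i1 compares the forms within a library and does not depend on its scaling, apart from the pseudocount. Exons of Cox4i1 overlap those of Emc8 on the opposite strand, so the ratio is uncertain if strand was not used. On the log2(FPKM + 1) scale it was -0.57, -0.03 and -0.72 in FP and -2.93, -1.09 and -2.90 in RR. The groups did not overlap, and Cox4i2 came closest to Cox4i1 in FP 14. The means differed by 1.86, with an exact two-sided permutation p of 0.1, the smallest that 3 against 3 libraries allow. Adjusted over 6 isoform pairs it was 0.3, a value that counts pairs whose restricted form was at 0 in some libraries. Among these, Cox7a1 to Cox7a2 also reached 0.1, and the 0.3 rests on that tie. The ratio of Cox4i2 to Cox4i1 was added after the values had been seen. Genes of hypertrophic chondrocytes and some of osteoblasts were also higher in FP. Of 6 osteoblast markers, 1 passed (Sp7, at 29.3, 40.7 and 36.9 FPKM across FP and 5.56, 3.08 and 4.23 across RR), and their summed level was 263 to 787 FPKM in FP and 121 to 1174 in RR. The summed level of the 4 hypertrophic markers was 559 to 647 FPKM in FP and 7.92 to 27.5 in RR. The part of such cells in the Cox4i2 difference was not tested.

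**Figure D4:**
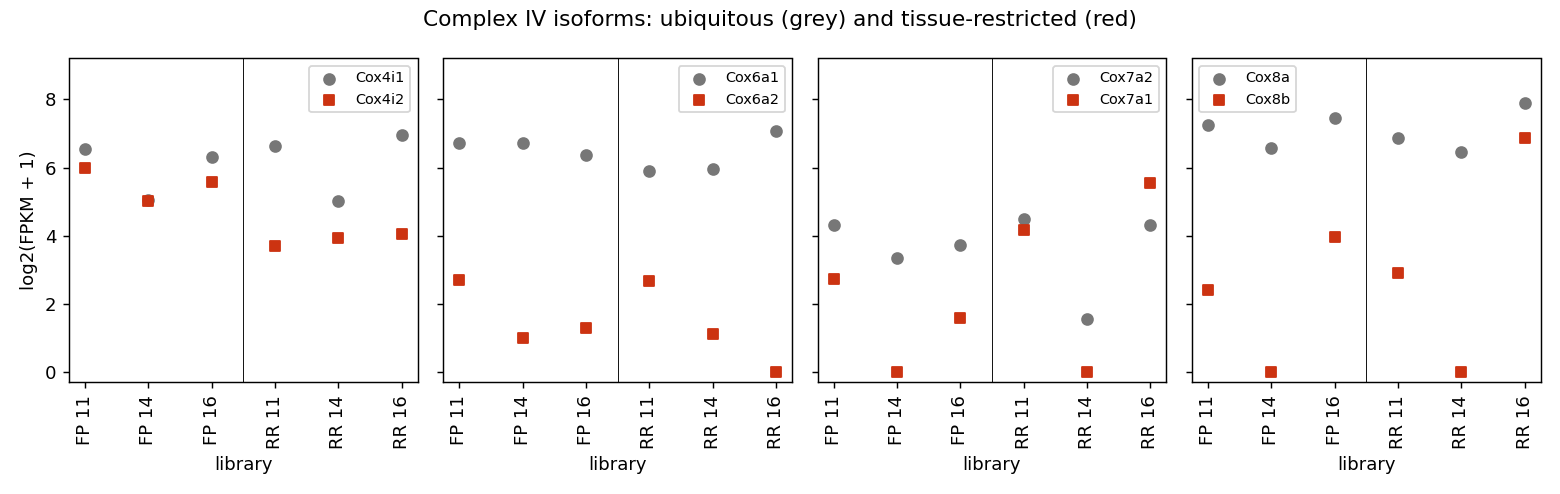
Widespread (grey circles) and tissue-restricted (red squares) forms of 4 complex IV subunits in each library, as log2(FPKM + 1), with FP left of the line and RR right of it. Cox4i2 lies near Cox4i1 in the 3 FP libraries and below it in RR, and Cox8b and Cox7a1 are highest in RR 16 (117 and 45.8 FPKM).

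The forms typical of muscle and brown fat varied widely among the libraries of each group. Cox8b, on mm10 at chr7:140898945-140900446 (minus strand), was at 4.27 and 14.5 FPKM in FP 11 and FP 16, 6.50 in RR 11 and 117 in RR 16, and was listed at 0 in FP 14 and RR 14. Cox7a1, at chr7:30184144-30186078 (plus strand), was at 5.60 and 2.03 FPKM in FP 11 and FP 16, 17.0 in RR 11 and 45.8 in RR 16, and also at 0 in FP 14 and RR 14. Both thus peaked in RR 16 and were at 0 in the libraries numbered 14. Cox6a2, the muscle form of subunit 6a, did not share this peak, with 5.55, 1.001 and 1.47 FPKM in FP, 5.37 and 1.17 in RR 11 and RR 14, and 0 in RR 16.

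The fitted changes of Cox8b and Cox7a1 depended on RR 16. For Cox8b the change was -1.14 ± 1.59 (limma adjusted p = 0.881) with all libraries and 0.66 (adjusted p = 0.884) without RR 16. For Cox7a1 it was -1.80 ± 1.28 (limma adjusted p = 0.723), -0.65 without RR 16 and -3.42 without RR 14. The log2 ratio of Cox7a1 to Cox7a2 differed by -2.13 between FP and RR, and by -1.41 without RR 16. In FP 14 and RR 14, where Cox7a1 was at 0, this ratio (-3.34 and -1.55) is set by Cox7a2 and the pseudocount alone. RR 14 lies next to FP 11 (-1.58), so the exact permutation p of 0.1 for this pair is not read as a result. The difference was -1.16 for Cox8b to Cox8a and 0.11 for Cox6a2 to Cox6a1, which also hold libraries with the restricted form at 0 and are given without a test.

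Genes of adipocytes had their peak in the same library. Ucp1, the uncoupling protein of brown fat, was at 0.799, 2.22 and 8.36 FPKM across FP and 0.243, 1.85 and 131 across RR. Fabp4, a fatty acid binding protein of adipocytes, was at 5.77, 2.08 and 31.3 FPKM in FP, 7.98 in RR 11, 0 in RR 14 and 369 in RR 16. Plin1, which coats fat droplets, was at 20.1 FPKM in RR 16 and at most 1.62 in the others. Summed over the 5 adipocyte markers, the level ranged from 5.49 to 42.6 FPKM over the FP libraries and from 8.12 to 528 over the RR libraries. RR 16 was highest in 4 of the 5, the exception being Cfd (0.436 FPKM in RR 16 and 1.94 in RR 11). Adipoq was listed at 0 in FP 14 and RR 11, and Cfd at 0 in FP 11, FP 16 and RR 14. Cidea, a brown fat gene looked at after these values, was at 28.1 FPKM in RR 16 and at most 2.09 elsewhere.

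Skeletal muscle genes mostly had higher estimates in FP but did not share 1 pattern across the libraries. RR 16 was the lowest of the 6 libraries in 7 of the 14 muscle markers and the highest in 1, Tnni2, a fast muscle troponin. Acta1, skeletal actin, was at 38.8, 27.6 and 66.3 FPKM across FP and 41.7, 5.84 and 2.71 across RR, and Mylpf, a fast muscle light chain, at 26.7, 5.79 and 26.0 across FP and 19.6, 2.89 and 0.569 across RR. Both are among the 7 that were lowest in RR 16, whereas Tnni2 was at 277, 314 and 330 FPKM across FP and 448, 236 and 769 across RR. Of 13 tested muscle markers 12 had estimates above 0, with a median of 1.46, and none passed. At an unadjusted limma p under 0.05 there were 5 of the 13, against 10.3% of all tested genes. In 2, all FP libraries lay above all RR libraries, against 8.74%. The summed level of all 14 was 457 to 588 FPKM in FP and 272 to 815 in RR, highest in RR 16 and made up mostly of Tnni2. Actn3 was listed at 0 in RR 16. The part of fat or muscle cells in the values of Cox8b, Cox7a1 and Cox6a2 was not tested.

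**Figure D5:**
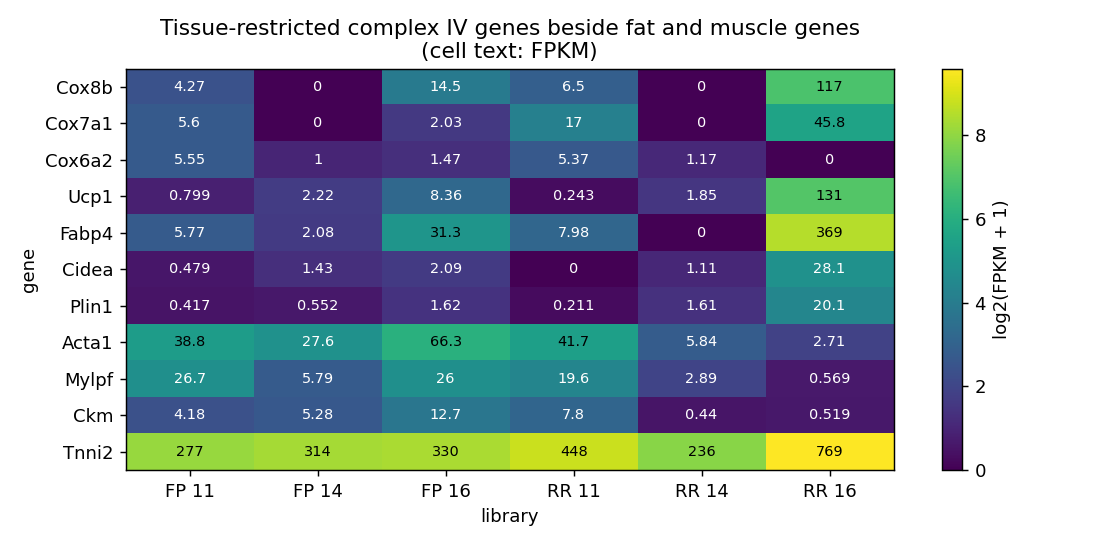
FPKM of the tissue-restricted complex IV genes and of fat and muscle genes in each library, with colour for log2(FPKM + 1) and the FPKM in each cell. Cox8b, Cox7a1, Ucp1, Fabp4, Cidea and Plin1 have their highest values in RR 16, where Tnni2 is also highest and Acta1 and Mylpf are lowest.

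The forms known from testis were low. Cox6b2 was at 3.51, 5.24 and 4.40 FPKM in FP, at 0 in RR 11, and at 2.03 and 4.80 in RR 14 and RR 16. Cox7b2 was listed at 0 in FP 14 and RR 16 and reached 7.82 FPKM in RR 14. Cox8c was listed at 0 in 4 libraries and otherwise read 0.840 FPKM (FP 11) and 5.74 FPKM (RR 16). On short transcripts such values amount to few fragments, and 1 fragment on 500 bp is worth 0.510 to 1.18 FPKM.

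The ATP synthase makes ATP from the proton gradient. Its median change was 0.30, with 14 of 16 tested estimates above 0, against 51.6% of all tested genes. Without the 200 highest genes the median was 0.16 with 11 estimates above 0, and under quantile normalization 0.08 with 9. The sign of the median held in these fits, but the count above 0 fell. Summed over its 17 genes, the level was 1099, 517 and 624 FPKM across FP and 730, 392 and 742 FPKM across RR. Without Atp5s and Atp5sl, which the symbol rule brings in although they are not subunits of the enzyme, 13 of 15 estimates were above 0 with a median of 0.31, and the sums were 1093, 502 and 619 FPKM across FP and 725, 386 and 734 across RR. Higher sums in FP at numbers 11 and 14 stand beside a lower one at number 16. The catalytic subunits overlapped between the groups. Atp5a1, the alpha subunit, was at 96.5, 51.6 and 68.0 FPKM across FP and 70.2, 42.1 and 90.7 across RR, and Atp5b, the beta subunit, at 79.9, 31.9 and 51.0 across FP and 51.6, 35.6 and 77.3 across RR. Atp5h, a stalk subunit whose promoter is shown above, had the highest mean of the complex, at 163, 57.8 and 53.1 FPKM across FP and 95.1, 34.4 and 83.7 across RR.

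Atp5g1, Atp5g2 and Atp5g3 encode the same mature ring subunit c from separate genes, and all had higher means in FP. Atp5g3 was at 54.1, 28.2 and 29.8 FPKM across FP and 23.1, 13.5 and 25.04 across RR, a change of 0.81 ± 0.35 (limma adjusted p = 0.478). Atp5g2 was at 34.2, 43.2 and 47.4 FPKM across FP and 21.3, 31.2 and 33.2 across RR, a change of 0.54 ± 0.28 (limma adjusted p = 0.597). In these genes the lowest FP library lay above the highest RR library. Atp5g1 was at 46.4, 33.8 and 41.7 FPKM across FP and 32.3, 16.1 and 34.3 across RR, a change of 0.60 ± 0.34 (limma adjusted p = 0.632), with FP 14 just under RR 16. Each of the 3 genes was higher in FP at every number and kept its sign in the 18 other fits, and none passed in any. Atp5g2 has 2 near-identical pseudogene copies, which leaves its level uncertain.

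Atp5l, the g subunit of the membrane part, had the lowest estimate of the complex (-0.37 ± 0.56), from 60.7, 14.7 and 12.9 FPKM across FP and 40.5, 20.6 and 31.3 across RR. It has 9 near-identical copies. Atp5sl, now named Dmac2 and known as an assembly factor of complex I, was at 4.01, 13.6 and 5.30 FPKM across FP and 3.90, 6.36 and 8.72 across RR, and the groups overlapped. Atp5s was at 1.98 and 1.78 FPKM in FP 11 and FP 14, 0.820 in RR 11 and 0 in the rest, and its mean of 0.763 FPKM kept it out of the test.

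Copies and overlaps touch many members. Among the 84 matched in GENCODE M21, 10 have another transcript in the annotation that is at least 95% identical over at least 50% of their length and 25 share exon bases with a gene on the opposite strand, so their values are uncertain where reads were split or strand was not used. In all, 8 members were listed at 0 in some libraries and none in all, with between 0 (FP 11) and 5 (FP 14) members at 0 per library.

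Other mitochondrial genes were followed as lists, and none of their genes passed the test. Of complex I assembly factors, 12 of 14 were tested, with 6 estimates above 0 and none at an unadjusted p under 0.05. Their median change was 0.04, and 0.03 under quantile normalization. It was -0.08 without the 200 highest genes, where the median of all genes was -0.10. Assembly factors of the other complexes had a median of 0.14 over 29 tested genes, which fell to 0.02 without the 200 highest genes and was 0.09 under quantile normalization. Of these 29, 3 had an unadjusted p under 0.05, the same share as over all tested genes (10.3%). Among the 3, Sdhaf4, which helps to mature the flavin subunit of complex II, was at 12.4, 9.84 and 6.48 FPKM across FP and 5.27, 2.29 and 4.06 across RR, a change of 1.13 ± 0.34 (limma adjusted p = 0.258). Cox10, which takes part in making the haem of complex IV, was at 4.41, 3.71 and 3.82 FPKM across FP and 1.55, 1.96 and 2.1998 across RR, a change of 0.78 ± 0.27 (limma adjusted p = 0.333). Both genes had all FP libraries above all RR libraries, as had 3 of the 29 in total, against 8.74% of all tested genes. The 10 tested chain genes that the symbol rule misses had a median of -0.06 and the 17 TCA cycle genes a median of -0.07 (-0.19 and -0.18 without the 200 highest genes), with none at an unadjusted p under 0.05.

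Regulators of mitochondrial biogenesis had a median of 0.06 over 18 tested genes, which turned below 0 without the 200 highest genes (-0.08, against -0.10 for all genes). At an unadjusted p under 0.05 there were 2 of the 18, against 10.3% of all tested genes. Pprc1, a coactivator of the PGC-1 family, was at 19.1, 22.4 and 20.7 FPKM across FP and 8.62, 11.2 and 14.3 across RR, a change of 0.84 ± 0.27 (limma adjusted p = 0.287). Tfb1m, the methyltransferase of mitochondrial ribosomal RNA, was at 1.63, 0.809 and 0.296 FPKM across FP and 3.10, 2.36 and 2.78 across RR, a change of -1.03 ± 0.37 (limma adjusted p = 0.369). Neither overlapped between groups, and they lay on opposite sides. Over the list, 2 genes had all FP libraries above all RR libraries and 3 had them below, against 8.74% and 7.28% of all tested genes. In FP 16, 1 fragment on 2000 bp is worth 0.187 FPKM, so the Tfb1m value there is near the floor. Of the 19 import, pore and carrier genes 17 had estimates above 0, with a median of 0.27. Without the 200 highest genes 15 did (median 0.12), and under quantile normalization 13 (median 0.07). Slc25a5, an ADP/ATP carrier, was at 54.8, 28.5 and 40.2 FPKM across FP and 18.3, 17.1 and 27.6 across RR, a change of 0.92 ± 0.32 (limma adjusted p = 0.348). It was the only gene of that list at an unadjusted p under 0.05, and the 8 antioxidant genes, with a median of -0.05 (-0.17 without the 200 highest genes), had none. The 13 mitochondrially encoded subunits were not analysed here.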

How the data were processed

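RNA from laser-cut frozen sections was taken up in QIAzol and made into stranded total RNA libraries with a picogram-input SMARTer kit, per the labels. Per the file headers, the authors deposited FPKM by gene symbol, in a file for each library. The build was mm10 and the tools included Cuffdiff 2.2.1, SAMtools 0.1.18, TopHat2 2.1.1 and Bowtie2 2.2.8, per the submitters' processing notes. The sources used here do not give the annotation, any scaling between libraries or the use of strand.

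Groups follow the title codes. FPKM was tested as log2(FPKM + 1), which understates changes of low genes, with limma 3.58.1 (R 4.3.3; intensity trend, two-sided, FP minus RR) over the 14789 genes whose mean reached 1 FPKM, and Benjamini-Hochberg adjusted p under 0.05 was the threshold. The fit was tested on simulated data with independent genes and large changes, which do not stand for small changes or shifts that members share. Fragments were estimated from steps in low FPKM, with the step of each library chosen to make the most values whole. At that step 70.5% to 74.1% of values were whole within 0.1 fragments. By chance 20% would be for a step fixed in advance, and more for a chosen one. Total depth is unknown, so no count test was run. Copies were found with BLAST 2.17.0 among GENCODE M21 transcripts.

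The members and lists were chosen with earlier results of these data known. Named genes are, per complex, those with the highest mean, the 2 smallest p and the extreme estimates, a panel by role, isoforms, members with zeros, 2 genes per list and the 2 most similar profiles. Others were named after their values were seen. All tests and counts include 1 member that is neither reported nor drawn by name.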

Additional observations from a re-analysis of the deposited data

How the results depend on the processing

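Across 18 alternatives, 1242 of 1258 values of named genes kept their side of the threshold or, if never past it, stayed outside. A further 12 moved past it, 4 fell outside it, and none that passed turned its sign. No member passed in the reported fit, so a member's estimate could turn its sign and still count as kept. Cox8a turned in 9 of the 18 and Sdhb and Uqcrc1 in 6 each, while Cox4i2, Ndufs6 and Ndufa8 turned in none. Respiratory chain members past the threshold numbered 0, and 1 (Cox4i2) with a pseudocount of 0.1, a filter at a mean of 5 FPKM, the median-ratio rescaling and zeros as missing, and 0 to 1 when 1 library was left out (Ndufs6 without RR 16). The median log2 change of members stayed within 0.46, the spread between numbers, of its value of 0.18, from -0.22 to 0.46. Genes differing between FP and RR numbered 143 (82 higher, 61 lower in FP), 83 without the intensity trend, 40 (without FP 16) to 85 (without FP 11) when 1 library was left out, and 39, 8 and 19 without both libraries numbered 11, 14 and 16. Fewer libraries leave fewer degrees of freedom in these fits. The split was 74 higher and 82 lower without the 200 highest genes.

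With library number as a replicate block, 271 genes and 1 member (Cox4i2, limma adjusted p = 0.0415) passed. Libraries of the same number deviated together at r of 0.32, 0.18 and 0.09 across genes (numbers 11, 14 and 16), and at 0.50, 0.20 and 0.26 across the members, each the best match of its number. Over all tested genes the last is under 0.1, and libraries of different numbers were at r of -0.22 to 0.05. The labels do not say what a number marks, and the numbers were not treated as pairs in the reported fit. Cox4i2 passed with the block and not in the reported fit, so that result depends on this choice. Isoform ratios with signs flipped within numbers cannot go below an exact p of 0.25.

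Depth limits the short genes most: RR 14 held 27 members under 10 fragments.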
